A study of Mus musculus with 9 samples.

Results

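The genes described here are 30 genes of cholesterol and fatty acid synthesis, among them enzymes of the mevalonate and sterol steps, the sterol regulatory element binding proteins (SREBPs) that control them, and the enzymes that make, lengthen and desaturate fatty acids. They were taken by gene symbol from a microarray table of mouse embryonic stem (ES) cells, and 29 of the 30 had a feature that named only that gene, among 19938 genes tested. The remaining member, Acat2, was not analysed here. The table held 9 arrays in 3 groups of 3, which the design text calls biological replicates. Null Eα cells had lost both alleles of β-catenin and stably expressed a fusion of E-cadherin with α-catenin. Null cells had lost both alleles and carried no fusion. Flox cells, the controls, had lost 1 β-catenin allele and kept a floxed copy of the other. All 3 groups shared a mixed S129S6-C57BL/6 background and were grown on gelatin in medium with 15% fetal calf serum, itself a source of cholesterol and fatty acids, and 1000 U/ml leukaemia inhibitory factor, and were harvested before confluence. Whether the 3 arrays of each group came from separate clones or from cultures of 1 line is not stated, so the p-values measure the spread between these samples, and genotype and cell line cannot be told apart.

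Cells build cholesterol from acetyl-CoA through mevalonate, isoprenoid diphosphates, squalene and lanosterol, and build fatty acids from the same acetyl-CoA through malonyl-CoA. The enzymes are commonly controlled together: when membranes lack sterol, the SREBP proteins, otherwise held in the endoplasmic reticulum by Scap and the Insig proteins, are released, cut and carried to the nucleus, where they act on the promoters of these genes. SREBP-2, the product of Srebf2, is known mainly for the sterol genes, and the SREBP-1c product of Srebf1 mainly for the fatty acid genes.

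The promoters of the 4 members with the largest called rises in null against flox cells are shown because such coordinated control acts there. Each is the 250 bases before the annotated start in RefSeq, build GRCm38.p6, written 5′ to 3′ on the gene's strand, and capitals mark matches, on either strand, to the CCAAT box (CCAAT), the GC box (GGGCGG) and the E-box (CACGTG).
Sc5d, chr9:42264301-42264550, minus strand: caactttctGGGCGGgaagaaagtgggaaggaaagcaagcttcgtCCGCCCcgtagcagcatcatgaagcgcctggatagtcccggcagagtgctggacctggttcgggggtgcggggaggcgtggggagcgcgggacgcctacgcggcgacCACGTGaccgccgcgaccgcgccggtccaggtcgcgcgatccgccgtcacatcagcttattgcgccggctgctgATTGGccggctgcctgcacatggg
Idi1, chr13:8885356-8885605, plus strand: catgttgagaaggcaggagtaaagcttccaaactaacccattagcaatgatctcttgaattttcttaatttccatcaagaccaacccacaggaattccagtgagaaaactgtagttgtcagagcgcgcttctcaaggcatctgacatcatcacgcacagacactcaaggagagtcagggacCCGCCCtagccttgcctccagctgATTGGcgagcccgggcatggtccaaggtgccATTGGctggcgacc
Msmo1, chr8:64733579-64733828, minus strand: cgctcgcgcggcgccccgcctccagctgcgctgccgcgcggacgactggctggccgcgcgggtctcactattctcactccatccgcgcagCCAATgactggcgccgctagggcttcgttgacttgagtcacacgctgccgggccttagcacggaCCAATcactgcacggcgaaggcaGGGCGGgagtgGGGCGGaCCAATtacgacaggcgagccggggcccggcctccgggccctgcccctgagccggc
Cyp51, chr5:4104698-4104947, minus strand: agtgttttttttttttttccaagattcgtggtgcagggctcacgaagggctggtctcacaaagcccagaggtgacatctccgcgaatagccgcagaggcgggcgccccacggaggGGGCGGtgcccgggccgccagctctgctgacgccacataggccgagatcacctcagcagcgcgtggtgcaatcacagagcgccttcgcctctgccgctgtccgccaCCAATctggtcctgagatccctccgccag
Each of the 4 windows held at least 1 CCAAT box and at least 1 GC box, and the Sc5d window also held the palindromic E-box CACGTG. Over the 22 members with a promoter used from the RefSeq table, 17 (77.3%) held CCAAT and 17 (77.3%) held GGGCGG. Of all 27025 promoters used from that table, 1 per gene, 34.5% and 32.9% did. CACGTG was found in 3 of the 22 (13.6%), against 6.05% of all promoters. The sterol regulatory element core searched, TCACNCCAC, was found in 1 of the 22 (4.55%), the Hmgcs1 promoter, against 1.04% of all promoters. The 4 motifs share no overlapping match in the printed windows. These matches describe letters in a short window, and a variant spelling or a site elsewhere would not be counted. The shares over all promoters were not matched to the signal level of the members, so they do not show what is particular to lipid genes.

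Signals are log2 RMA values, and differences are log2 differences fitted with limma over all 19938 genes, with the standard error after ±. A gene was called where the Benjamini-Hochberg adjusted p over all genes was under 0.05, and rose or fell is written only of called genes. Array medians lay between 5.95 and 6.06, and the interquartile range was 3.21 to 3.37 on null Eα arrays, 3.41 to 3.46 on null arrays and 3.75 to 3.84 on flox arrays. Null Eα replicate 3 differed somewhat from its group: over features its Pearson correlation with the null arrays was 0.978 to 0.980, against 0.964 to 0.970 for the other 2 arrays of null Eα cells. With the flox arrays it was 0.951 to 0.956, against 0.945 to 0.954 for those 2. With its own group it was 0.986 and 0.987, against 0.990 between the other 2. The called differences of the genes in null Eα cells are therefore also given without it. Ctnnb1 signals, the deleted gene, were 10.23, 10.13 and 10.32 in null Eα cells, 10.55, 10.50 and 10.47 in null cells and 11.13, 11.13 and 11.21 in flox cells, lower on every array of both deleted lines. Probes outside the deleted part would not test the deletion. On 14.2% of features a flox array and an array of another group held the same deposited value. Among the members this applied to Tm7sf2 and Hsd17b7. Repeats among arrays of the deleted lines were not counted. They occurred, for example, for Srebf2 and Elovl6 on null replicate 2 and null Eα replicate 3, and for Dhcr7 on null replicates 1 and 2.

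The lipid synthesis genes did not move as a block. In null against flox cells, Sc5d, Idi1, Msmo1, Cyp51, Stard4, Hmgcs1, Pmvk and Acly rose, while Ebp, Fads1, Mvk, Mvd, Scd1, Fdft1, Nsdhl, Fdps, Elovl6 and Scd2 fell. Rises and falls stood side by side within the mevalonate and the sterol steps. That made 8 members higher, 10 lower and 11 not called, a called share near the background: 26.5% of all genes were higher, 28.7% lower and 55.2% either. All 29 members lay among the 11334 genes whose mean signal exceeded the median of all feature values, 6.00, and of these brighter genes 26.9% were higher, 43.1% lower and 70% either. Called differences of at least 2-fold were found in 4 members upward and 5 downward, against 5.03% and 10.2% of all genes. Of the 11334 brighter genes, 799 rose and 1827 fell by that much. The members' median difference was -0.12, beside 0.06 for all genes and -0.13 for the brighter genes, and its sign turned with quantile normalization (0.06) and with each chromosome centred on its own median (0.08). Chromosome centring itself moved the median of all genes to 0.19 in null against flox, 0.27 in null Eα against flox and 0.12 in null Eα against null cells.

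In null Eα against flox cells the balance lay further towards lower signals: 5 members rose (Msmo1, Idi1, Sc5d, Hmgcs1 and Cyp51), 17 fell and 7 were not called. The shares of all genes called were 32.1% higher and 31.6% lower (63.7% either), and of the brighter genes 21% higher and 49.4% lower (70.4% either). None of the 29 rose by 2-fold or more and 5 fell by that much (Fads1, Scd1, Ebp, Fads2 and Mvk), against 2.22% and 9.75% of all genes. Of the 11334 brighter genes, 366 rose and 1783 fell by that much. The members' median difference was -0.37, beside 0.07 for all genes and -0.25 for the brighter genes. Quantile normalization brought the members' median to -0.07 with 9 higher and 11 lower, and chromosome centring to -0.06, also with 9 higher and 11 lower. Over all 19938 genes, 4943 were higher and 5262 lower with quantile normalization, and 10460 and 4548 with chromosome centring. Without null Eα replicate 3, 5 members were higher and 18 lower, with a median of -0.51, beside 6550 and 6491 of all genes.

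In null Eα against null cells, the comparison that shows the lines with and without the fusion, 12 members fell, 1 rose (Ebp) and 16 were not called. Of all genes 13.6% were higher and 18.1% lower (31.7% either), and of the brighter genes 16.2% and 28.9% (45.1% either). The falls covered all 3 fatty acid synthesis enzymes, all 5 desaturases and elongases, the sterol enzymes Cyp51, Sc5d and Dhcr7, and Stard4. No member differed by 2-fold or more, where 1.7% of all genes rose and 3.13% fell by that much. Of the 11334 brighter genes, 315 rose and 551 fell by that much. The members' median was -0.30, beside 0.05 for all genes and -0.06 for the brighter genes. The number of members lower was 17 without null Eα replicate 3 and 7 without null replicate 3. Over all 19938 genes, 3609 were lower in the main fit, 4133 without null Eα replicate 3 and 2907 without null replicate 3. The arrays of null Eα and null cells did not overlap for 11 of the 29 members, null Eα and flox arrays for 23, and null and flox arrays for 20. The same held for 43.1%, 69.5% and 67.4% of all genes, and the shares of the brighter genes were not computed. The null arrays serve in both comparisons with null cells, and the flox arrays in both comparisons with flox cells, so the comparisons are not independent of one another.

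**Figure D1:**
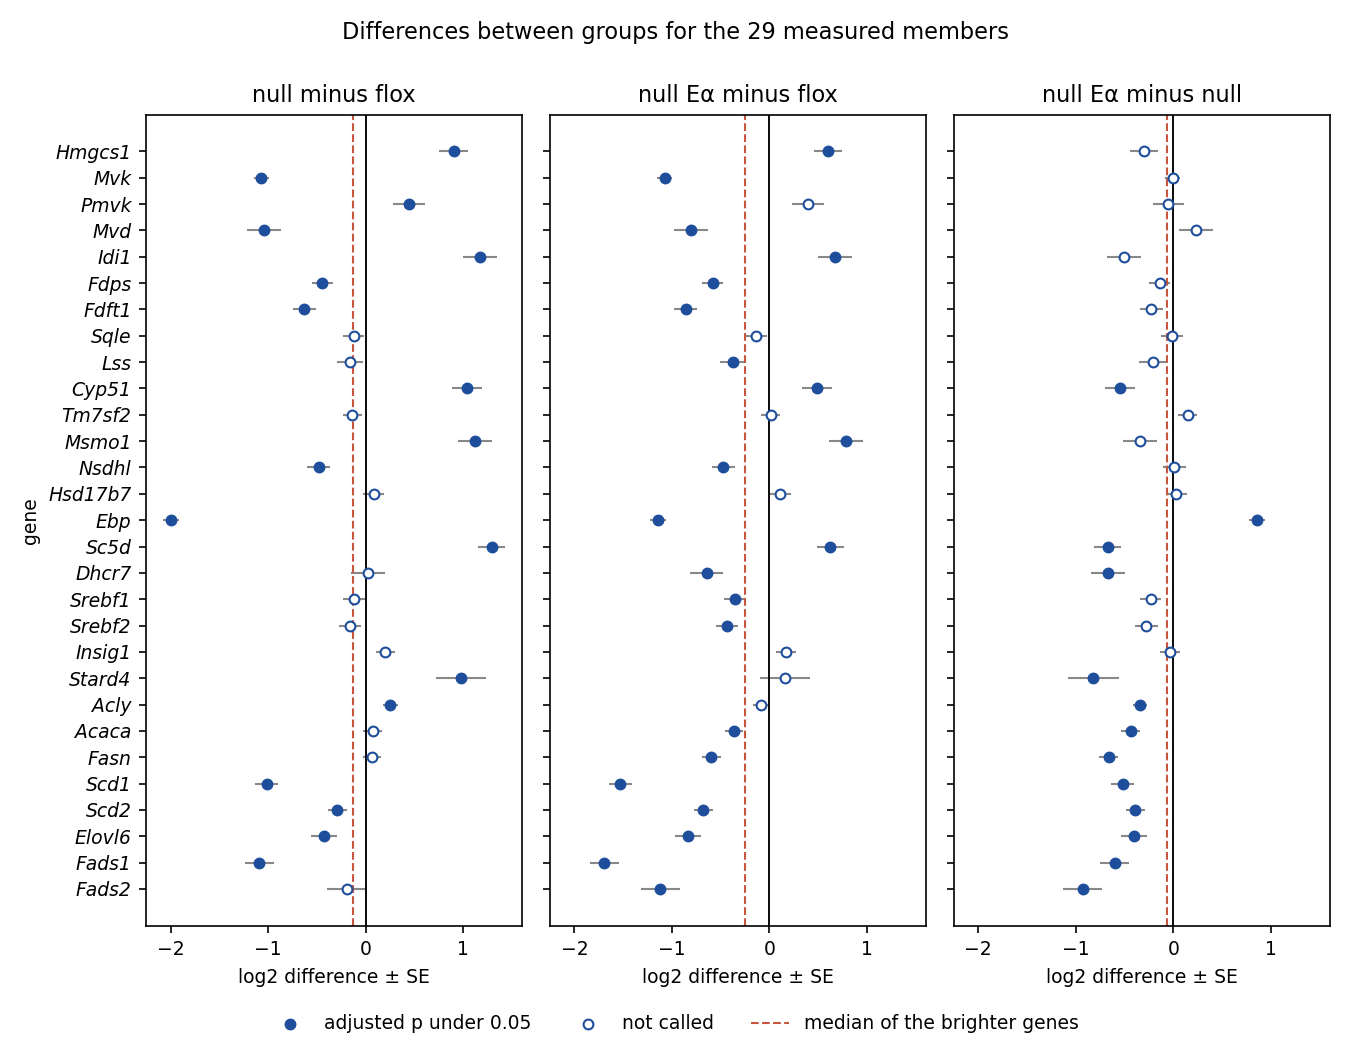
Log2 difference with its standard error for each of the 29 measured members (rows, ordered by role) in 3 panels, one per comparison. Filled points have an adjusted p under 0.05, open points do not, and the dashed line is the median of the brighter genes (-0.13 in null against flox, -0.25 in null Eα against flox, -0.06 in null Eα against null). The mevalonate and sterol genes spread to both sides of 0, and the 5 desaturases and elongases lie below 0 in every panel.

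The mevalonate steps split into rising and falling enzymes. Of 6 measured genes, 3 rose and 3 fell in null against flox cells, 2 rose and 3 fell in null Eα against flox cells, and 0 were called in null Eα against null cells by limma, where the unadjusted p was under 0.05 for 1, Idi1. The shares called in these comparisons were 55.2%, 63.7% and 31.7% of all genes and 70%, 70.4% and 45.1% of the brighter genes. Hmgcs1, the synthase that makes HMG-CoA, averaged 10.71 ± 0.29 in null Eα cells, 11.01 ± 0.21 in null cells and 10.11 ± 0.02 in flox cells (SD, n = 3 each). It rose by 0.90 ± 0.14 in null cells (adjusted p = 3.64e-04) and 0.60 ± 0.14 in null Eα cells (adjusted p = 0.00469) over flox cells. Idi1 signals were 10.12, 10.30 and 10.96 in null Eα cells, 10.90, 10.95 and 11.03 in null cells and 9.73, 9.85 and 9.78 in flox cells. Idi1, the isopentenyl diphosphate isomerase, was thus above every flox array on every array of both deleted lines, by 1.17 ± 0.18 in null cells (2.26-fold, adjusted p = 2.24e-04) and 0.67 ± 0.18 in null Eα cells (1.59-fold, adjusted p = 0.00737). Null Eα replicate 3 alone reached the null level, and without it the Idi1 difference between null Eα and flox cells was 0.42 and that of Hmgcs1 0.44. Between null Eα and null cells the Idi1 difference was -0.50 ± 0.18 (adjusted p = 0.0522), and -0.75 without null Eα replicate 3 (adjusted p = 1.15e-04). It lay close to the threshold and was called under 7 of the 17 other settings, among them each array or each chromosome centred. For Hmgcs1 it was -0.30 ± 0.14 (adjusted p = 0.138), and -0.46 without that array (adjusted p = 0.0110). Pmvk, the phosphomevalonate kinase, rose by 0.44 ± 0.16 in null cells (adjusted p = 0.0378), a call lost without null replicate 2 or 3 or flox replicate 1 or 2, over leave-one-out values of 0.31 to 0.55. It was also not called with each array centred (0.41, adjusted p = 0.0566) or each chromosome centred (0.32, adjusted p = 0.0641). Its difference in null Eα cells was 0.39 ± 0.16 (adjusted p = 0.0531), called without null Eα replicate 2 or null replicate 3, over leave-one-out values of 0.23 to 0.51, and with quantile normalization (0.67, adjusted p = 0.00290) or each chromosome centred (0.50, adjusted p = 0.00866).

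The falling enzymes work on either side of Pmvk. Mvk signals were 7.54, 7.47 and 7.57 in null Eα cells, 7.43, 7.57 and 7.59 in null cells and 8.65, 8.62 and 8.53 in flox cells. Mvk, the mevalonate kinase, lay below every flox array on all 6 arrays of the deleted lines, which did not differ from each other beyond their spread (-0.01 ± 0.07 for null Eα minus null). Its difference from flox cells was -1.07 ± 0.07 in null cells (fold 0.477, adjusted p = 7.72e-07) and -1.07 ± 0.07 in null Eα cells (fold 0.475, adjusted p = 1.02e-06). Mvd signals were 8.71, 8.49 and 8.86 in null Eα cells, 8.04, 8.47 and 8.84 in null cells and 9.50, 9.42 and 9.55 in flox cells. Mvd, the mevalonate diphosphate decarboxylase, was also below flox on every array. Its difference was -1.04 ± 0.17 in null cells (adjusted p = 4.83e-04) and -0.81 ± 0.17 in null Eα cells (adjusted p = 0.00246). It had the widest spread of any member within the null group. Mvd lies on chromosome 8, whose brighter genes had a median difference of -0.45 in null against flox and -0.59 in null Eα against flox cells. With each chromosome centred the null Eα difference of Mvd was -0.25 (adjusted p = 0.183). Fdps, which makes farnesyl diphosphate, fell by 0.44 in null cells (adjusted p = 0.00541) and fell by 0.58 (adjusted p = 0.00102) in null Eα cells. With chromosomes centred the null minus flox difference of Mvd was -0.57 and still called. With quantile normalization the null Eα minus flox differences of Mvd and Fdps were -0.48 and -0.35, both called. Without null Eα replicate 3 the null Eα minus flox differences of Mvk, Mvd and Fdps were -1.10, -0.89 and -0.67.

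Of the 11 sterol enzymes, which turn farnesyl diphosphate into cholesterol, 3 rose and 3 fell in null against flox cells, 3 rose and 5 fell in null Eα against flox cells, and 1 rose and 3 fell in null Eα against null cells. Beside these counts, 55.2%, 63.7% and 31.7% of all genes were called in the same order, and 70%, 70.4% and 45.1% of the brighter genes. The risers, Cyp51, Msmo1 and Sc5d, trim methyl groups from lanosterol or desaturate its ring. Sc5d signals were 8.75, 8.50 and 9.03 in null Eα cells, 9.30, 9.37 and 9.61 in null cells and 7.99, 8.17 and 8.25 in flox cells. Sc5d, the lathosterol oxidase, was in 3 separate bands, with null above null Eα and null Eα above flox. Its difference was 1.29 ± 0.14 for null minus flox (2.45-fold, adjusted p = 1.81e-05), 0.62 ± 0.14 for null Eα minus flox (adjusted p = 0.00290) and -0.67 ± 0.14 for null Eα minus null (adjusted p = 0.00449). Cyp51 signals were 8.79, 8.86 and 9.43 in null Eα cells, 9.50, 9.50 and 9.70 in null cells and 8.43, 8.62 and 8.56 in flox cells. Cyp51, the lanosterol demethylase, kept the same order of group means, with null Eα replicate 3 just below the null arrays and the other null Eα arrays closer to flox. Its differences were 1.03 ± 0.15 (adjusted p = 2.00e-04), 0.49 ± 0.15 (adjusted p = 0.0171) and -0.54 ± 0.15 (adjusted p = 0.0209) in the same 3 comparisons. The last was not called without null Eα replicate 1 or 2 or null replicate 3, over leave-one-out values of -0.75 to -0.43, nor with only null Eα and null arrays in the fit (adjusted p = 0.0555). Msmo1 signals were 11.05, 11.16 and 11.68 in null Eα cells, 11.34, 11.71 and 11.88 in null cells and 10.40, 10.60 and 10.55 in flox cells. Msmo1, the methylsterol monooxygenase, was above flox on all 6 arrays of the deleted lines, by 1.12 ± 0.17 in null cells (adjusted p = 2.86e-04) and 0.78 ± 0.17 in null Eα cells (adjusted p = 0.00305). The null Eα and null arrays overlapped (-0.34 ± 0.17). Without null Eα replicate 3 the null Eα minus flox differences of Sc5d, Cyp51 and Msmo1 were 0.49, 0.29 and 0.59, all called. Against null cells they were then -0.80, -0.75 and -0.54, also all called. With quantile normalization the null Eα minus flox differences of Sc5d and Cyp51 were larger, at 0.94 and 0.82, and with each chromosome centred that of Msmo1 was 1.34. The null Eα minus flox call of Cyp51 was lost without flox replicate 1, over leave-one-out values of 0.29 to 0.61. Their promoters, with that of Idi1, are the 4 printed windows.

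Ebp went the other way by the largest margin of any member in null cells. Ebp signals were 8.008, 7.999 and 8.004 in null Eα cells, 7.04, 7.11 and 7.30 in null cells and 9.23, 9.12 and 9.08 in flox cells. Ebp, the sterol isomerase that acts just before Sc5d, was lowest on the null arrays, intermediate on the null Eα arrays and highest on the flox arrays, without overlap. It fell by 1.99 in null cells (fold 0.251, adjusted p = 2.46e-08) and fell by 1.14 (fold 0.454, adjusted p = 1.50e-06) in null Eα cells against flox cells, and was higher by 0.86 ± 0.08 in null Eα than in null cells (adjusted p = 5.17e-05). The 3 null Eα values had an SD of 0.0047, and without null Eα replicate 3 the null Eα differences were -1.14 against flox and 0.86 against null cells. Fdft1, the squalene synthase, averaged 10.66 ± 0.15 in null Eα cells, 10.89 ± 0.21 in null cells and 11.52 ± 0.10 in flox cells. It fell by 0.63 in null cells (adjusted p = 0.00106) and fell by 0.86 (adjusted p = 1.38e-04) in null Eα cells. Nsdhl, a dehydrogenase that works with Msmo1, averaged 9.37 ± 0.20 in null Eα cells, 9.36 ± 0.17 in null cells and 9.84 ± 0.10 in flox cells. It fell by 0.48 in null cells (adjusted p = 0.00548) and fell by 0.47 (adjusted p = 0.00581) in null Eα cells. Leaving out null Eα replicate 3 gave null Eα minus flox differences of -0.95 for Fdft1 and -0.59 for Nsdhl. The null Eα minus flox fall of Nsdhl was not called with quantile normalization (-0.18, adjusted p = 0.174), and was -0.27 with each chromosome centred. As deposited, the adjacent enzymes of this branch moved in opposite directions: Msmo1 rose and Nsdhl fell, and Sc5d rose and Ebp fell, against flox cells in each of the deleted lines, with that exception for Nsdhl.

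Dhcr7, the reductase of a last step of cholesterol synthesis, averaged 8.53 ± 0.39 in null Eα cells, 9.20 ± 0.19 in null cells and 9.17 ± 0.04 in flox cells. It did not pass the test in null against flox cells (0.03 ± 0.17) and in null Eα cells fell by 0.65 against flox (adjusted p = 0.00821) and fell by 0.67 against null cells (adjusted p = 0.0143). Without null Eα replicate 3 these 2 differences were -0.87 and -0.90. The second was not called without null Eα replicate 1 or 2 or null replicate 3, over leave-one-out values of -0.90 to -0.53. The fall against flox was not called with quantile normalization (-0.32, adjusted p = 0.114) and was -0.43 with each chromosome centred. Sqle signals were 9.86, 9.80 and 10.16 in null Eα cells, 9.81, 9.94 and 10.12 in null cells and 10.09, 10.07 and 10.08 in flox cells. Sqle, the squalene epoxidase and a rate-limiting step, overlapped between all 3 groups, and its differences were -0.12 ± 0.11, -0.14 ± 0.11 and -0.01 ± 0.11 for null minus flox, null Eα minus flox and null Eα minus null. The null Eα minus flox difference of Sqle was -0.25 without null Eα replicate 3 and was then called (adjusted p = 0.0410). Lss, the lanosterol synthase, was called only in null Eα against flox cells, at -0.37 ± 0.14 (adjusted p = 0.0361), which was not called when null Eα replicate 1 or 2 or any single flox array was left out, over leave-one-out values of -0.51 to -0.29 (-0.51 without null Eα replicate 3). The call of Lss was also lost with quantile normalization (-0.07, adjusted p = 0.662) and with each chromosome centred (-0.17, adjusted p = 0.258). The sterol reductase Tm7sf2 and the ketosteroid reductase Hsd17b7 were not called in any comparison, with differences of -0.14 to 0.15. With quantile normalization both were called in null Eα against flox cells (0.30 for Tm7sf2 and 0.44 for Hsd17b7), and Hsd17b7 also in null against flox cells (0.29, adjusted p = 0.0246). With each chromosome centred Tm7sf2 was called in null Eα against flox cells (0.28, adjusted p = 0.0240).

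**Figure D2:**
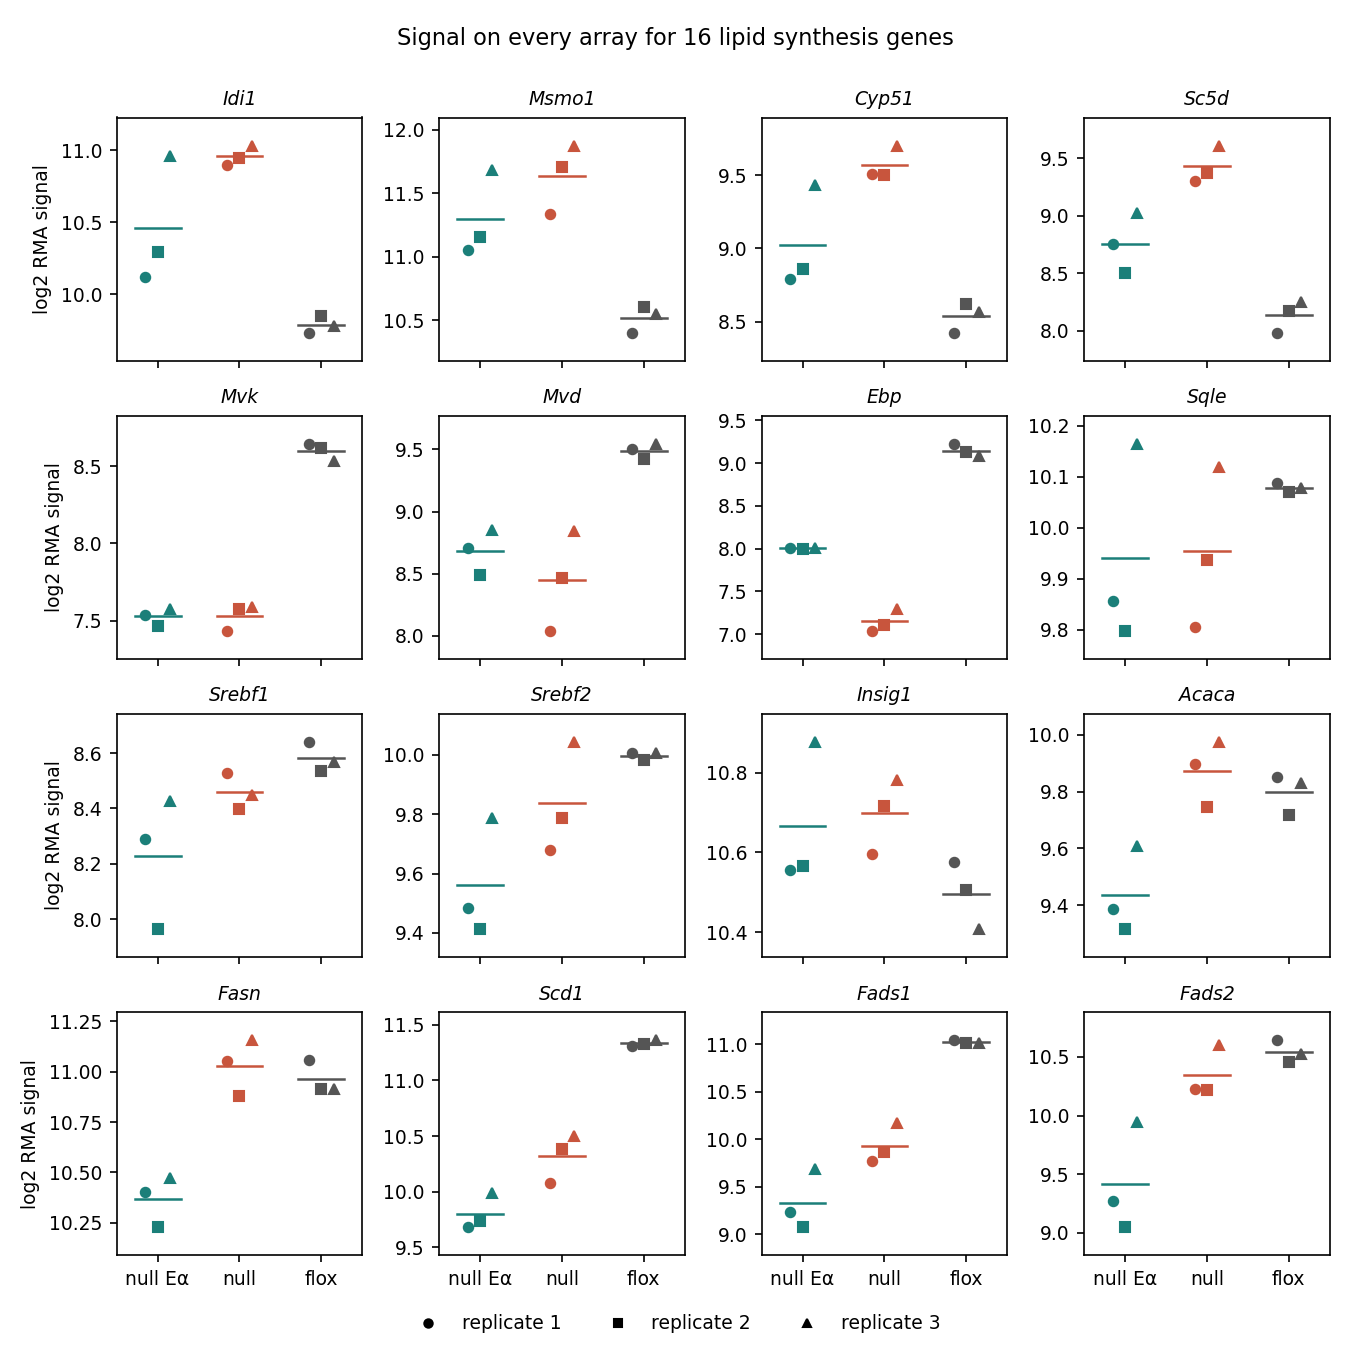
Log2 RMA signal on each of the 9 arrays for the 16 members whose values are given array by array, with null Eα on the left, null in the middle and flox on the right of each panel, marker shape for the replicate number and a bar for the group mean. Sc5d, Cyp51, Idi1 and Msmo1 are highest in null cells, Ebp is lowest there, and Scd1 and Fads1 step down with null Eα lowest and flox highest. Replicate 3, the triangles, is the top point of the null Eα and null groups in most panels.

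Of the 4 genes of regulation and sterol transport, 1 rose in null against flox cells, 2 fell in null Eα against flox cells and 1 fell in null Eα against null cells. The called shares were 55.2%, 63.7% and 31.7% of all genes in the same order, and 70%, 70.4% and 45.1% of the brighter genes. Srebf2 signals were 9.49, 9.41 and 9.79 in null Eα cells, 9.68, 9.79 and 10.04 in null cells and 10.00, 9.98 and 10.01 in flox cells. Srebf2 was lower in null Eα cells than on any flox array, with a difference of -0.44 ± 0.12 (adjusted p = 0.00820), and -0.55 without null Eα replicate 3. It was not called in null against flox cells (-0.16 ± 0.12), and between null Eα and null cells its difference was -0.28 ± 0.12 (adjusted p = 0.0973), called at -0.39 without null Eα replicate 3. Srebf1 signals were 8.29, 7.96 and 8.43 in null Eα cells, 8.53, 8.40 and 8.45 in null cells and 8.64, 8.53 and 8.57 in flox cells. Srebf1 in null Eα cells was below every flox array, with a difference of -0.35 ± 0.11 (adjusted p = 0.0174), or -0.45 without null Eα replicate 3. The call was lost without flox replicate 1 (leave-one-out values of -0.45 to -0.22). The null arrays were also all below the flox arrays by a margin that was not called (-0.12 ± 0.11, adjusted p = 0.365). Neither fall was called with quantile normalization (-0.14 for Srebf2 and -0.03 for Srebf1). With each chromosome centred Srebf2 was not called (-0.25) and Srebf1 turned to 0.18 (adjusted p = 0.129). Insig1 signals were 10.55, 10.57 and 10.88 in null Eα cells, 10.60, 10.72 and 10.78 in null cells and 10.57, 10.51 and 10.41 in flox cells. Insig1, which holds the SREBPs in the endoplasmic reticulum and is itself a target of them, had higher means in both deleted lines, with null Eα and flox arrays overlapping, and its differences from flox cells, 0.20 ± 0.10 in null and 0.17 ± 0.10 in null Eα cells, were not called. Both were called under 2 other scalings. With quantile normalization the difference was 0.33 in null cells (adjusted p = 0.0175) beside 0.38 in null Eα cells (adjusted p = 0.00811). With each chromosome centred it was 0.36 in null cells (adjusted p = 0.0111) beside 0.34 in null Eα cells (adjusted p = 0.0116). The null minus flox difference was also called without null Eα replicate 3 (adjusted p = 0.0451). Stard4, a cytosolic sterol carrier, averaged 7.50 ± 0.62 in null Eα cells, 8.32 ± 0.28 in null cells and 7.34 ± 0.06 in flox cells, a rise of 0.98 ± 0.26 in null cells (1.97-fold, adjusted p = 0.00820). Its SD of 0.62 in null Eα cells was the highest of any member, from null Eα replicate 3: against null cells the difference was -0.82 ± 0.26 with it (adjusted p = 0.0343) and -1.18 without it. That call was lost without any other single array except null replicate 1, over leave-one-out values of -1.18 to -0.62, and with only null Eα and null arrays in the fit (adjusted p = 0.0853).

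Of the 3 enzymes of fatty acid synthesis, Fasn and Acaca fell in null Eα against flox cells and were not called in null against flox cells, while Acly rose in null cells and was not called in null Eα against flox cells. Fasn signals were 10.41, 10.23 and 10.47 in null Eα cells, 11.05, 10.88 and 11.16 in null cells and 11.06, 10.92 and 10.92 in flox cells. Fasn, the fatty acid synthase, was lower on all 3 null Eα arrays than on any null or flox array. Its difference was -0.59 ± 0.10 against flox (fold 0.662, adjusted p = 4.15e-04) and -0.66 ± 0.10 against null cells (adjusted p = 6.48e-04), while null and flox arrays overlapped (0.07 ± 0.10). Acaca signals were 9.39, 9.32 and 9.61 in null Eα cells, 9.90, 9.74 and 9.97 in null cells and 9.85, 9.72 and 9.83 in flox cells. Acaca, the acetyl-CoA carboxylase that makes malonyl-CoA for synthesis, had the same order. Its difference was -0.36 ± 0.10 against flox (adjusted p = 0.00792) and -0.44 ± 0.10 against null cells (adjusted p = 0.00663), with 0.07 ± 0.10 in null against flox cells. With quantile normalization the null Eα minus flox difference of Acaca was -0.07 and not called (adjusted p = 0.528), and its null minus flox difference was called at 0.26 (adjusted p = 0.0277). Acly, which makes cytosolic acetyl-CoA from citrate, averaged 10.55 ± 0.08 in null Eα cells, 10.89 ± 0.08 in null cells and 10.64 ± 0.06 in flox cells. It rose in null cells by 0.25 (adjusted p = 0.0177), a call lost without null replicate 2 or 3 or flox replicate 2 or 3 (leave-one-out values of 0.22 to 0.30). Its null Eα minus flox difference was -0.09 ± 0.08 (adjusted p = 0.313) and its null Eα minus null difference -0.34 ± 0.08 (adjusted p = 0.00719). Without null Eα replicate 3 the null Eα minus null differences of Fasn, Acaca and Acly were -0.71, -0.52 and -0.39, and the null Eα minus flox differences of Fasn and Acaca were -0.65 and -0.45.

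All of these 3 genes, and Srebf1, lie on chromosome 11, and the other genes of that chromosome shifted too. Its 995 brighter genes had a median difference of -0.56 in null Eα against flox cells, -0.31 in null Eα against null cells and -0.17 in null against flox cells. With each chromosome centred, the null Eα minus flox difference of Fasn was -0.06 (adjusted p = 0.597), that of Acaca 0.18 (adjusted p = 0.103) and that of Acly 0.45 (adjusted p = 5.07e-04), so the falls of Fasn and Acaca were no longer called and Acly was called higher. Against null cells, Fasn was still lower with chromosomes centred, at -0.34 (adjusted p = 0.0168), and Acaca (-0.12) and Acly (-0.02) were not called. In null against flox cells, chromosome centring brought calls for Fasn (0.29, adjusted p = 0.0219) and Acaca (0.29, adjusted p = 0.0160), and Acly stood at 0.47. Chromosomes 8 and 6 shifted by like amounts in null Eα against flox cells, with medians of -0.59 and -0.56 over their brighter genes. Chromosome 8 holds Mvd and Msmo1, which moved in opposite directions, and chromosome 6 holds no member. The part of these chromosome-wide shifts in the members' differences was not tested beyond the centred values given here.

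**Figure D3:**
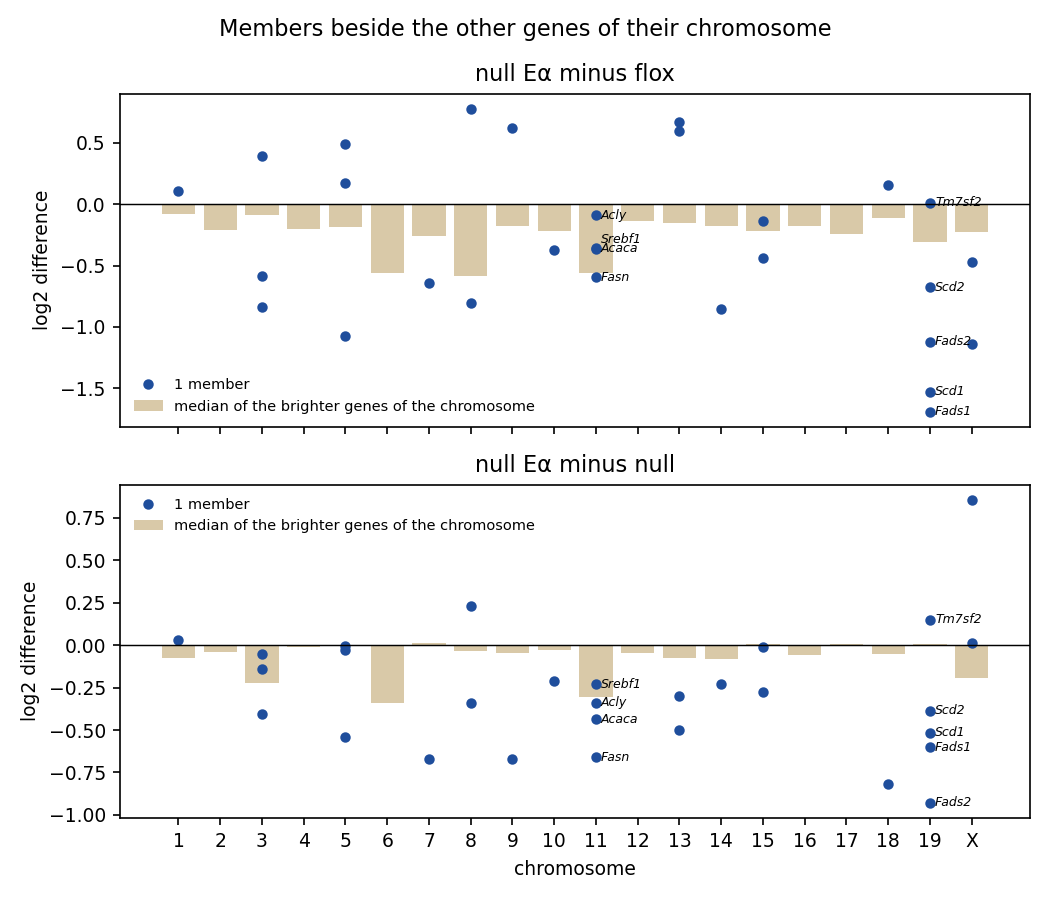
Log2 difference of each member (points) by chromosome, over bars for the median of the brighter genes of the same chromosome, for null Eα minus flox (top) and null Eα minus null (bottom). The chromosome 11 members Fasn, Acaca, Acly and Srebf1 lie around or above the chromosome's own median of -0.56 in the top panel, while Scd1, Fads1 and Fads2 lie well below the chromosome 19 median of -0.31.

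The desaturases and elongases were the only role whose members all lay below 0 in every comparison, with Fads2 at 0.03 in null against flox cells when chromosomes were centred. Of 5, 4 fell in null against flox cells, 5 in null Eα against flox cells and 5 in null Eα against null cells, with medians of -0.43, -1.12 and -0.52. By comparison, 28.7%, 31.6% and 18.1% of all genes were called lower in the same order, and 43.1%, 49.4% and 28.9% of the brighter genes. Fads1 signals were 9.23, 9.08 and 9.68 in null Eα cells, 9.77, 9.86 and 10.17 in null cells and 11.04, 11.01 and 11.01 in flox cells. Fads1, the later of the desaturases that make long-chain polyunsaturated fatty acids, was lowest in null Eα, intermediate in null and highest in flox cells, without overlap. It fell by 1.09 in null cells (fold 0.470, adjusted p = 1.24e-04), fell by 1.69 (fold 0.310, adjusted p = 6.08e-06) in null Eα cells and fell by 0.60 in null Eα against null cells (adjusted p = 0.0125). Scd1 signals were 9.68, 9.73 and 9.99 in null Eα cells, 10.07, 10.38 and 10.50 in null cells and 11.31, 11.32 and 11.36 in flox cells. Scd1, a stearoyl-CoA desaturase that makes monounsaturated fatty acids, showed the same 3 steps. It fell by 1.01 in null (adjusted p = 3.47e-05) and fell by 1.53 (adjusted p = 2.20e-06) in null Eα cells against flox, and fell by 0.52 in null Eα against null cells (adjusted p = 0.00775). Fads2 signals were 9.27, 9.05 and 9.94 in null Eα cells, 10.23, 10.21 and 10.60 in null cells and 10.64, 10.46 and 10.52 in flox cells. Fads2, the earlier desaturase of the polyunsaturated pathway, set the null Eα arrays apart, since null and flox arrays overlapped (-0.19 ± 0.20) and null Eα cells fell by 1.12 against flox (adjusted p = 7.85e-04) and fell by 0.93 against null cells (adjusted p = 0.00586).

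Scd2, the stearoyl-CoA desaturase of most non-hepatic mouse tissue, averaged 11.38 ± 0.18 in null Eα cells, 11.77 ± 0.08 in null cells and 12.06 ± 0.04 in flox cells. It fell by 0.29 in null cells (adjusted p = 0.0251), fell by 0.68 (adjusted p = 1.65e-04) in null Eα cells and fell by 0.39 in null Eα against null cells (adjusted p = 0.0120). Elovl6, which lengthens palmitate and related fatty acids, averaged 10.60 ± 0.30 in null Eα cells, 11.00 ± 0.12 in null cells and 11.43 ± 0.03 in flox cells. It fell by 0.43 (adjusted p = 0.0182), fell by 0.83 (adjusted p = 3.62e-04) and fell by 0.40 (adjusted p = 0.0407) in the same order. The null minus flox call of Scd2 was lost without null replicate 2 or flox replicate 1 or 2 (leave-one-out values of -0.33 to -0.25), and that of Elovl6 without null replicate 1 or 2 or flox replicate 3 (-0.50 to -0.39). With each chromosome centred the null minus flox difference of Scd2 was -0.06 and not called (adjusted p = 0.562). The Elovl6 call in null Eα against null cells was lost without any single array other than null Eα replicate 3 (-0.58 to -0.32). It was also lost with quantile normalization (-0.33, adjusted p = 0.0690), with each chromosome centred (-0.18, adjusted p = 0.213) and with only null Eα and null arrays in the fit (adjusted p = 0.0945). The Fads1 difference between null Eα and null cells was -0.48 without null replicate 3 and just missed the call (adjusted p = 0.0510). Without null Eα replicate 3 the null Eα minus flox differences were -1.87 for Fads1, -1.63 for Scd1, -1.38 for Fads2, -1.01 for Elovl6 and -0.78 for Scd2. Against null cells they were then -0.78, -0.61, -1.19, -0.58 and -0.49 for the same genes. Scd1, Scd2, Fads1 and Fads2 lie on chromosome 19, whose brighter genes had a median of -0.31 in null Eα against flox cells, and with each chromosome centred their differences in that comparison were -1.26, -0.41, -1.42 and -0.85, all called.

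**Figure D4:**
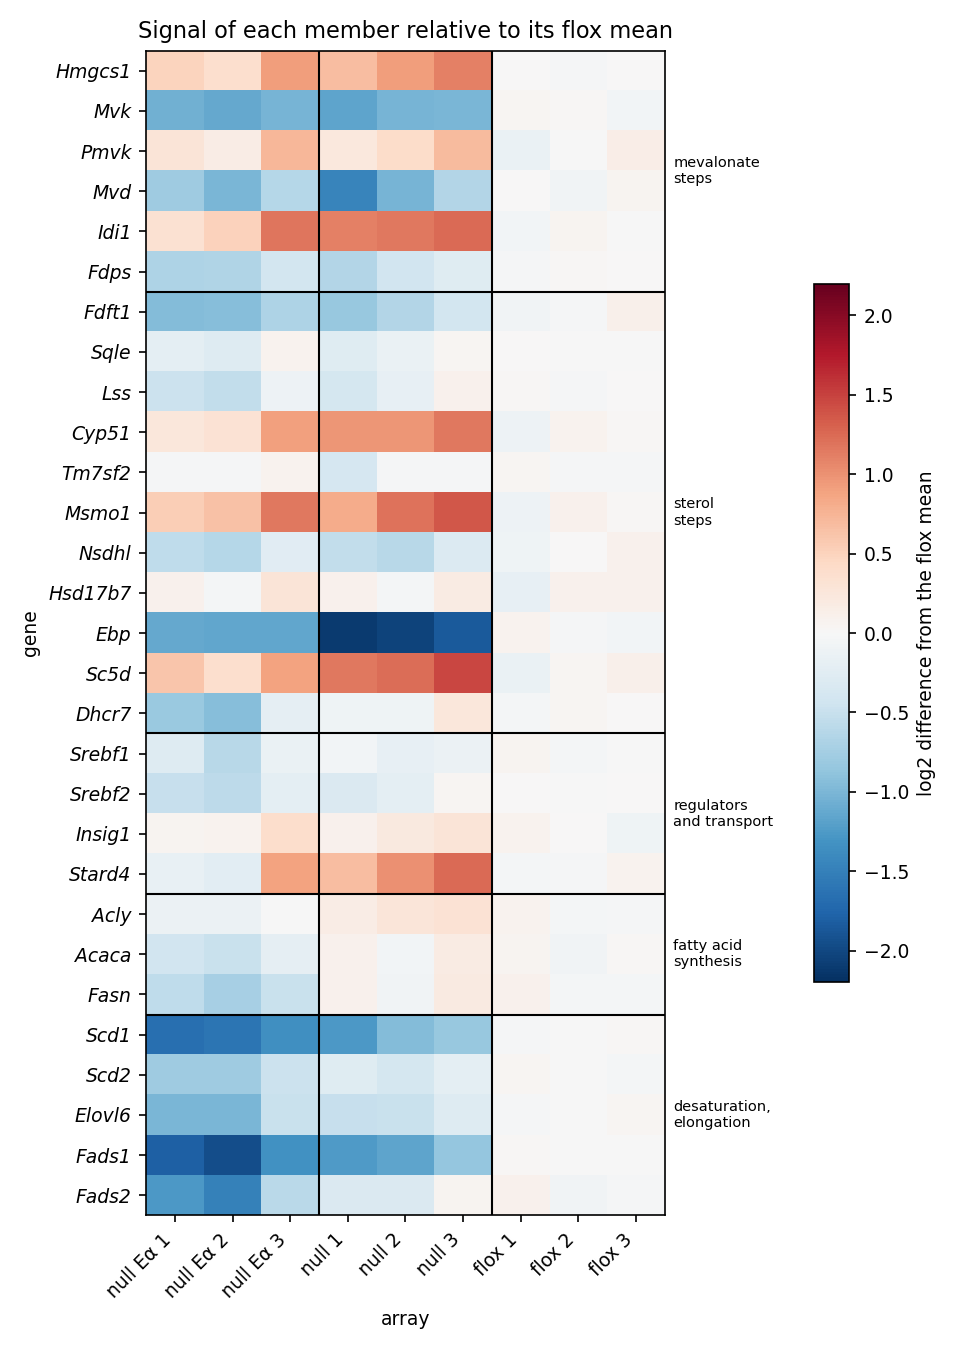
Signal of each of the 29 members (rows, by role) on each of the 9 arrays (columns, null Eα, null, flox) as the log2 difference from the member's own flox mean, blue below and red above. The rows of Hmgcs1, Idi1, Cyp51, Msmo1 and Sc5d are red on the arrays of both deleted lines, those of Mvk, Mvd, Ebp, Scd1 and Fads1 are blue there, and the column of null Eα replicate 3 is shifted towards red beside the other null Eα columns.

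Within the deleted lines, the lipid synthesis genes varied together from array to array. On null Eα replicate 3, 28 of the 29 members had their highest value of the 3 null Eα arrays, where 44.1% of the brighter genes did, and all 29 lay above their group mean. On null replicate 3, 27 of the 29 were highest of the 3 null arrays, where 32.6% of the brighter genes were, and 28 lay above their group mean. On the flox arrays no such array stood out: 13, 5 and 10 members were highest on replicates 1, 2 and 3, with Hsd17b7 tied, against 26.6%, 24.4% and 47.2% of the brighter genes. The members' median deviation from the group mean was -0.10, -0.15 and 0.22 on the 3 null Eα arrays, -0.12, -0.04 and 0.18 on the 3 null arrays and 0.01, -0.01 and 0.01 on the 3 flox arrays, while the medians of the brighter genes lay between -0.02 and 0.02 on all 9.

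This shared deviation crossed the roles and the direction of the group differences. It held for Idi1 and Msmo1, which rose against flox cells, for Scd1 and Fads2, which fell in null Eα cells, and for Insig1 and Sqle, which were not called. The median SD within a group was 0.198 over the members in null Eα cells and 0.121 over the brighter genes, 0.166 and 0.107 in null cells, and 0.0603 and 0.0705 in flox cells. The exception on null Eα replicate 3 was Ebp, whose 3 null Eα arrays were nearly equal. The members were chosen by name and not by this pattern, but genes are not independent replicates and each array is 1 culture, so the values describe these arrays. Of the null Eα arrays, replicate 3 also correlated best with the null arrays, and with the flox arrays, over all features. What set null Eα replicate 3 and null replicate 3 apart was not tested.

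**Figure D5:**
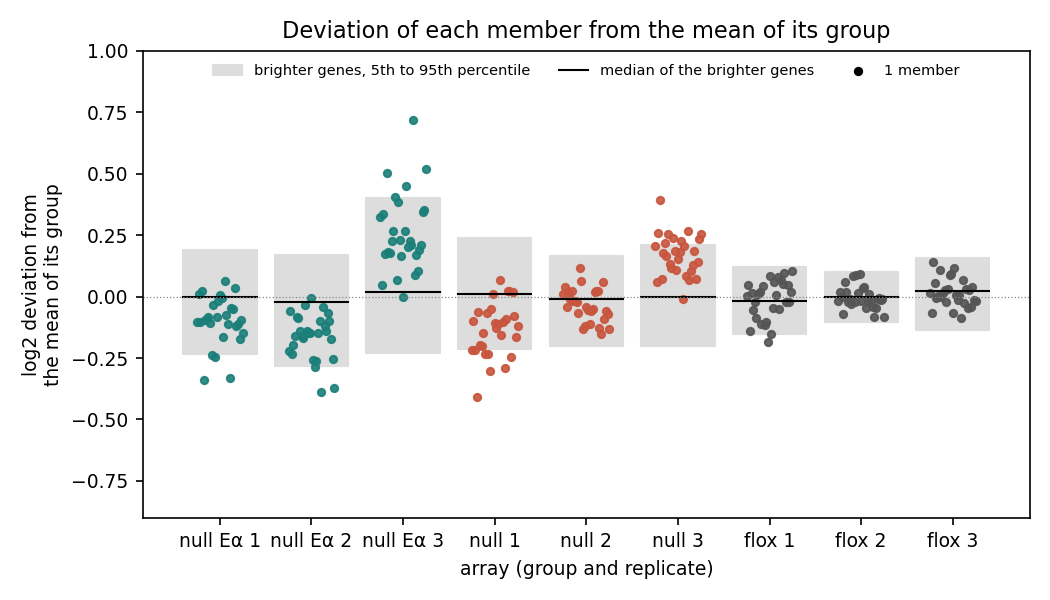
Deviation of each member (points) from the mean of its group on each of the 9 arrays, with the grey band from the 5th to the 95th percentile of the 11334 brighter genes and a line at their median. Nearly all members lie above 0 on null Eα replicate 3 (29 of 29) and null replicate 3 (28 of 29), and they straddle 0 on the flox arrays.

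Genes around the synthesis pathway were read from a second list of 43, of which 34 were measured and 9 were not analysed here. Of the 34, 12 rose and 15 fell in null against flox cells, 4 rose and 17 fell in null Eα against flox cells, and 9 rose and 12 fell in null Eα against null cells, with medians of -0.10, -0.19 and -0.17. In the same order, 55.2%, 63.7% and 31.7% of all genes were called, and 70%, 70.4% and 45.1% of the brighter genes. With each array centred on its median the null against flox counts of the 34 were 7 and 16, and in null Eα against flox cells they were 7 and 11 with quantile normalization and 9 and 15 with chromosomes centred. Leaving out null Eα replicate 3 gave 4 and 18 in null Eα against flox and 10 and 13 in null Eα against null cells. Scap, which escorts the SREBPs out of the endoplasmic reticulum, fell by 0.46 in null cells (adjusted p = 5.55e-04) and fell by 0.50 (adjusted p = 3.15e-04) in null Eα cells. The null Eα fall of Scap was -0.55 without null Eα replicate 3 and was not called with quantile normalization (-0.18, adjusted p = 0.0625). Insig2, a partner of Insig1 in retaining them, averaged 8.34 ± 0.15 in null Eα cells, 8.98 ± 0.13 in null cells and 8.27 ± 0.13 in flox cells. It rose by 0.71 ± 0.11 in null cells (adjusted p = 2.37e-04) and was not called in null Eα cells (0.07 ± 0.11), except with quantile normalization (0.39, adjusted p = 0.00682). Apoe, the lipoprotein that carries cholesterol out of cells, averaged 11.27 ± 0.08 in null Eα cells, 9.65 ± 0.15 in null cells and 11.76 ± 0.03 in flox cells. It fell by 2.11 in null cells (adjusted p = 2.58e-08) and was higher by 1.62 ± 0.09 in null Eα than in null cells (adjusted p = 1.23e-06), or by 1.67 without null Eα replicate 3.

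Several genes that feed or use fatty acids changed by at least 1 on the log2 scale. Me1, the malic enzyme that supplies NADPH, rose by 1.33 ± 0.08 in null cells (adjusted p = 3.20e-07) and 0.67 ± 0.08 in null Eα cells (adjusted p = 5.62e-05). Slc25a1, the carrier that exports citrate from mitochondria, fell by 1.19 in null cells and fell by 0.73 in null Eα cells. Acacb, the carboxylase tied to the control of fatty acid oxidation, fell by 1.35 in null cells and fell by 0.54 in null Eα cells, and Elovl2, an elongase of polyunsaturated fatty acids, fell by 1.05 in null cells and fell by 1.27 in null Eα cells. The falls of Elovl2 stand beside those of Fads1 in the same polyunsaturated pathway. Dgat1, which completes triglycerides, fell by 0.89 in null cells and fell by 1.29 in null Eα cells. Acsl4, which activates polyunsaturated fatty acids, rose by 0.99 ± 0.22 in null cells (adjusted p = 0.00307) and its null Eα minus null difference was -1.11 ± 0.22 (adjusted p = 0.00367). When null Eα replicate 3 was left out, the null Eα minus flox differences were 0.66 for Me1, -0.67 for Slc25a1, -0.49 for Acacb, -1.42 for Elovl2 and -1.29 for Dgat1. Acsl4 was then at -1.41 against null cells and was called lower than flox (-0.43, adjusted p = 0.00967), where it had been -0.12 ± 0.22 with the array.

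The 8 genes of fatty acid oxidation were divided as well, with 4 higher and 4 lower in null against flox cells, 2 and 3 in null Eα against flox cells, and 3 and 3 in null Eα against null cells. Of all genes, 55.2%, 63.7% and 31.7% were called in the same order. Cpt1a signals were 7.97, 7.97 and 7.84 in null Eα cells, 6.77, 6.81 and 6.77 in null cells and 9.07, 9.12 and 9.22 in flox cells. Cpt1a, the gate for fatty acid entry into mitochondria, was lowest in null cells and highest in flox cells without overlap, and fell by 2.35 in null (adjusted p = 3.87e-09) and fell by 1.21 (adjusted p = 4.53e-07) in null Eα cells. Its partner Cpt2 fell by 0.56 in null cells, whose 3 arrays held the same deposited value, and fell by 1.07 in null Eα cells. Acadl, the long-chain dehydrogenase, rose by 1.17 ± 0.18 in null cells, and Hadhb, a subunit of the trifunctional protein, by 0.35 in null cells and 1.03 ± 0.12 in null Eα cells. Acadl was not called in null Eα against flox cells (0.15 ± 0.18). Its null Eα minus null difference was -1.01 ± 0.18 (adjusted p = 0.00193), and that of Cpt1a was 1.14 ± 0.07 (adjusted p = 3.79e-06). Leaving out null Eα replicate 3 gave null Eα minus flox differences of -1.16 for Cpt1a, -1.18 for Cpt2 and 1.14 for Hadhb. Against null cells it gave 1.19 for Cpt1a and -1.25 for Acadl.

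Markers of cell types that the cultures could hold moved with the groups, and their part in the members' differences was not tested. Beside the counts below, 55.2% of all genes were called in null against flox, 63.7% in null Eα against flox and 31.7% in null Eα against null cells. Of 7 ES cell markers, 1 rose and 6 fell in null against flox cells, 1 rose and 3 fell in null Eα against flox cells, and 7 rose in null Eα against null cells. Their median signal per array was 11.26 to 11.38 in null Eα cells, 9.20 to 9.79 in null cells and 11.42 to 11.46 in flox cells. Of 8 fibroblast markers, 7 rose in null and 7 in null Eα against flox cells, and their median signal was 7.63 to 8.12 in null Eα, 8.15 to 8.85 in null and 5.61 to 5.81 in flox cells. Visceral or primitive endoderm, a tissue that makes lipoproteins, had 9 markers, of which 4 rose and 1 fell in null and 5 rose in null Eα against flox cells. Their median signal was 5.49 to 5.57 in null Eα, 5.54 to 5.57 in null and 5.11 to 5.32 in flox cells, all under the median of all features. Of the 6 adipocyte markers, 0 were called in null against flox cells by limma (1, Plin1, at an unadjusted p under 0.05), and in null Eα against flox cells 4 rose and 1, Lpl, fell. With quantile normalization the 4 that rose, Adipoq, Plin1, Fabp4 and Cidec, were not called (0.03, 0.39, 0.18 and 0.19). The median signal of the 6 was 5.24 to 5.36 in null Eα, 5.24 to 5.39 in null and 4.96 to 5.16 in flox cells, all under the median of all features. Lpl, the lipoprotein lipase, had signals of 5.55, 5.77 and 7.03 in null Eα cells, 7.71, 7.81 and 7.55 in null cells and 7.70, 7.80 and 7.78 in flox cells, low on null Eα replicates 1 and 2. Lpl fell by 1.64 in null Eα against flox cells (adjusted p = 9.72e-04), and fell by 2.10 without null Eα replicate 3. Without that array, the counts of calls in null Eα against flox cells were the same as with it for each of the 4 marker lists. In such bulk samples, fewer cells of a type and less RNA per cell cannot be told apart.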

How the data were processed

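Total RNA of 9 cultures was hybridised to 1-colour Affymetrix whole-transcript arrays, per the labels' protocols. The deposited table holds log2 values made by the authors with RMA, per the submitters' processing notes, which give no version. Whether the 3 groups were normalized together is not given in the sources used here, and array distributions differed between groups. The values were used as deposited, with no further scaling.

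Of 35556 features, 21789 named 1 gene in the platform's gene table, 1621 named several and 12146 were not listed. Features with several names were left out, and the brightest feature over the 9 arrays stood for each of 19938 genes. Of the 21789, 21698 had an Entrez ID in the GRCm38.p6 gene table, and 0 symbols differed. Other features of Idi1, Fdft1 and Acaca had differences of the same sign in every comparison. A left-out feature that names Srebf2 with other genes was higher in null (1.24) and null Eα cells (0.87) than in flox cells.

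Groups were compared in R 4.3.3 with limma 3.58.1 (lmFit and eBayes, 1 mean per group, all arrays together, residual df 6, prior df 4.04) and Benjamini-Hochberg adjustment over all genes in each of the 3 comparisons. The test was checked on simulated data. Precision is limited by 3 arrays per group. Probe-level files, detection calls and scan dates were not used here.

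The members and lists, and the rule for named genes, were chosen with earlier results of these data known. Values on every array are given for members called with a log2 difference of at least 1 in any comparison, and for Srebf1, Srebf2, Insig1, Sqle, Acaca and Fasn. Of the other pathway genes, Scap and Insig2 are named, and any called with such a difference. Cpt1a and Lpl are given array by array by choice after their values were seen, and the array-to-array co-variation of the members was also noticed in these data. The 17 alternatives changed the scaling, the chromosome centring, the filter on dim genes, the variance prior, the arrays fitted, the feature per gene and the replicate block, or left out each array in turn. Promoters came from RefSeq (GRCm38.p6), with 22 of 29 members matched by Entrez ID. Only promoter sequences of the most common length were used. Plots used Python 3.11.15 with matplotlib 3.10.9.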

Additional observations from a re-analysis of the deposited data

Results flagged for a closer look

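The members below differed between null Eα and null cells at an adjusted p under 0.05 (limma), so that their differences from the shared flox arrays were unequal in the 2 deleted lines. The null Eα minus null log2 difference was -0.54 for Cyp51, 0.86 for Ebp, -0.67 for Sc5d, -0.67 for Dhcr7 and -0.82 for Stard4. Among the fatty acid genes it was -0.34 for Acly, -0.44 for Acaca, -0.66 for Fasn, -0.52 for Scd1, -0.39 for Scd2, -0.40 for Elovl6, -0.60 for Fads1 and -0.93 for Fads2. Of these 13 calls, 6 held in every one of the 17 alternatives, those of Ebp, Sc5d, Fasn, Scd1, Scd2 and Fads2. Single outlying arrays were not tested for in groups of 3.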

How the results depend on the processing

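Over 1479 recomputed differences of single members, 1337 kept their direction and their side of the threshold, and 46 turned in sign with no call before or after. With the sign kept, 63 lost a call and 30 gained one. The other 3 turned in sign and were called either before or after, not both. Of the called members, 14 of 18 in null against flox, 13 of 22 in null Eα against flox and 6 of 13 in null Eα against null cells kept their call under all 17 alternatives. Those 3 turns in sign came with each chromosome centred in null Eα against flox cells, on chromosome 11, which had a median of -0.56. Srebf1 (0.18, adjusted p = 0.129) and Acaca (0.18, adjusted p = 0.103) lost their call, and Acly (0.45, adjusted p = 5.07e-04) gained one. Quantile normalization gave 9 members higher, 11 lower and a median of -0.075 in null Eα against flox cells, and chromosome centring 9, 11 and -0.057. Their medians in null against flox cells were 0.058 and 0.077. Of the other pathway genes in null Eα against flox cells, 7 were higher and 11 lower with quantile normalization, and 9 higher with chromosomes centred. In null against flox cells 7 were higher with each array centred on its median. Leaving out single arrays gave 6 to 13 other pathway genes higher in null against flox cells and 7 to 17 members lower in null Eα against null cells, with 7 without null replicate 3. Other leave-one-out ranges were 6 to 9 members higher and 8 to 10 lower in null against flox cells (median -0.20 to -0.05), 4 to 6 and 15 to 18 in null Eα against flox cells (median -0.51 to -0.30), and 1 higher in null Eα against null cells (median -0.39 to -0.20). Over all genes, chromosome centring gave 8495 higher and 4855 lower in null against flox, 10460 and 4548 in null Eα against flox, and 5002 and 2897 in null Eα against null cells. Array centring gave 4674 higher and 6987 lower in null Eα against flox cells. With the replicate block, members higher and lower were 8 and 10 in null against flox, 6 and 17 in null Eα against flox, and 1 and 13 in null Eα against null cells. The replicate block gained a call for Idi1 in null Eα against null cells (adjusted p = 0.0332) and for Pmvk in null Eα against flox cells (adjusted p = 0.00656), and changed no other call of a member. For the other pathway genes the replicate block gave 12 and 15, 5 and 17, and 9 and 12. Deviations of same-numbered arrays from their group means correlated at -0.03 to 0.26, and those of different-numbered arrays at -0.20 to 0.14. The highest value was that of replicate 3 of null Eα and replicate 3 of null cells. The main fit does not pair the arrays, because the labels do not say that the numbers mark shared cultures. Whether same-numbered arrays shared a culture or batch was not tested. The cause was not tested for any changed call. The table gives no detection calls, so signal over background was not assessed.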
